A study of Mus musculus with 7 samples.

Results

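The regulators of calcineurin are encoded by 3 mouse genes, Rcan1, Rcan2 and Rcan3, and were followed here in RNA and in Nfatc1 binding data from mouse fibroblasts undergoing chemical reprogramming. All 3 were found by symbol among the 53715 genes of the RNA table (ENSMUSG00000022951, ENSMUSG00000039601 and ENSMUSG00000059713) and all 3 passed the filter on low values, a mean of at least 1 TPM. To them were added all binding peaks in each gene's span and 50 kb on either side, which came to 38 of 36885 peaks in the R406 library and 22 of 21246 peaks in the DMSO library.

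Embryonic fibroblasts of day 13.5 OG2 mice, CBA-Tg(Pou5f1-EGFP)2Mnn/J, which carry a green fluorescent reporter under Pou5f1, were grown in the first medium of that protocol, Stage 1. For the RNA libraries it is listed as bFGF, VPA, CHIR99021, 616452, Parnate, forskolin, AM580, EPZ004777 and vitamin C in a base with serum, changed every 4 days for 12 days. The CUT&Tag cells were kept in Stage 1 medium with doxycycline, so the reporter and this medium were shared by R406 and DMSO alike. The RNA set comprised 2 libraries from cells that received R406, which blocks the kinase Syk, and 2 from cells that received the solvent DMSO. CUT&Tag, in which a tethered transposase cuts DNA beside a bound antibody, was run with an anti-FLAG antibody in 1 library given R406 and 1 given DMSO for 4 days. The cells of those libraries carried rtTA and a doxycycline-driven, lentiviral Flag-Nfatc1, so the peaks refer to an added, tagged protein. The labels name no such transgene for the RNA libraries. Another CUT&Tag library, made without primary antibody, was not analysed here, so no peak was checked against signal that arises without that antibody. For R406 no dose is stated in the labels, nor is the day of RNA harvest.

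Calcineurin is a phosphatase switched on by calcium and calmodulin, and it lets NFAT transcription factors enter the nucleus by removing phosphate from them. Rcan proteins bind calcineurin and restrain it. Rcan1 is also a target of the pathway it restrains, because NFAT drives a downstream start of the gene, the one that opens at the fourth exon, while an upstream start gives a longer protein that does not depend on NFAT in the same way. Rcan2 is best known from brain, heart and skeletal muscle, and Rcan3 is the least studied of the family.

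RefSeq lists 2 starts for Rcan1 and 3 for Rcan2, and the promoter table used here holds 1 start for Rcan3. Rcan1 lies on the minus strand at chr16:92391951-92466169 (GRCm38, the build named mm10 by the submitters), and its starts are 66091 bases apart. Rcan2 lies on the plus strand at chr17:43801352-44039516, and Rcan3 on the minus strand at chr4:135412308-135433871. The 250 bases before 4 of these starts are shown, credited to RefSeq on GRCm38.p6, because they set the start that carried the tallest Rcan peak beside starts that carried small peaks or none. Each is read 5′ to 3′ on the gene's own strand and ends at the base before the start. Capitals mark the NFAT core GGAAA or its reverse complement TTTCC, the cAMP response element TGACGTCA and the AP-1 element TGACTCA or its reverse complement TGAGTCA.
Rcan1 downstream start, chr16:92400079-92400328, minus strand: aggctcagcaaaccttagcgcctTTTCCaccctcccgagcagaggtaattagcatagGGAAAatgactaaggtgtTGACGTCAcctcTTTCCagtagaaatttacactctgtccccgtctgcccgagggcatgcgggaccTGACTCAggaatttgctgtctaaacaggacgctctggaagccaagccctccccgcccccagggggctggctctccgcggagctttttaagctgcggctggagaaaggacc
Rcan1 upstream start, chr16:92466170-92466419, minus strand: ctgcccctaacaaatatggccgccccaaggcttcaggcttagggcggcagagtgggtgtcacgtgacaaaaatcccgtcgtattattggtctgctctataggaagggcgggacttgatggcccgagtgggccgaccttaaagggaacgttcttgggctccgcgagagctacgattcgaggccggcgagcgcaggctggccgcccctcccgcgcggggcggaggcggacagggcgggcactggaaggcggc
Rcan2 start 3, chr17:43952749-43952998, plus strand: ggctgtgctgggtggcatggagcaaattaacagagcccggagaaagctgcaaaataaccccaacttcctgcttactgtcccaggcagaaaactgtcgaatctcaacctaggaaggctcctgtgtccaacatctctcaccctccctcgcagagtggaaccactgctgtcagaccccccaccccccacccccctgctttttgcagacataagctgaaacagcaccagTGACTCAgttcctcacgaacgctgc
Rcan3 start, chr4:135433806-135434055, minus strand: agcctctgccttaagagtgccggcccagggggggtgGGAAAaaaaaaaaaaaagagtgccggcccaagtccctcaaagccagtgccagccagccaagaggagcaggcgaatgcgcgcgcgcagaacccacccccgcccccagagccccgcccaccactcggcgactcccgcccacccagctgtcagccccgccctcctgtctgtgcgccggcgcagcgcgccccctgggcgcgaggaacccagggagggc
The downstream Rcan1 window held 3 NFAT cores, which begin 227, 193 and 163 bases before the start, with the cAMP response element at 175 bases and the AP-1 element at 110 bases. The upstream Rcan1 window held 0 matches to any of the 3 motifs. The first Rcan2 window, not shown, held 2 NFAT cores and the second, also not shown, held 0 matches. Neither overlapped a peak in either library. The third Rcan2 window held 1 AP-1 element, 25 bases before the start, and the Rcan3 window held 1 NFAT core at the head of a run of A. Of 32851 RefSeq promoter windows of the same length, 55.6% held at least 1 NFAT core, 6.39% held 3 or more, 1.55% held the cAMP response element and 4.46% the AP-1 element. All 3 motifs stood together in 6 windows. The motifs were picked after the Rcan1 sequence had been read, and a match describes letters, not a bound site.

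The tallest Nfatc1 peak within 50 kb of any of 11996 expressed protein-coding genes lay at the downstream Rcan1 start, with R406 and with DMSO alike. With R406 the peak ran over chr16:92397785-92401853 with a fold of 237 over background, and with DMSO over chr16:92397618-92401488 with a fold of 166. These folds are the authors' values for each peak. Both summits lay just before the start whose sequence heads the list above, 282 bases upstream of it with R406 and 238 bases with DMSO. By fold the peak ranked 2 of 36885 with R406 and 2 of 21246 with DMSO. It ranked 12 and 19 by the authors' −log10 p-value.

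A fold could be turned back into a pileup, the number of fragments stacked at the summit, because MACS2 adds 1 to both pileup and background. The background came to 0.581 fragments in the R406 library and 0.373 in the DMSO library, a ratio of 1.56, which is taken as the ratio of their depths. The peak at the downstream start held 374 fragments with R406 (exact 95% Poisson interval 337 to 414) and 227 with DMSO (198 to 259), where intervals cover counting error only. Divided by its own background, the height was 644 with R406 and 609 with DMSO, a ratio of 1.06 with a counting interval of 0.894 to 1.25. The ratio of the deposited folds was 1.43 instead, since the added 1 weighs more in the shallower library. Among 356 matched pairs with a DMSO pileup of at least 50, the median ratio of heights was 0.964 with quartiles of 0.746 and 1.25, so the Rcan1 peak stood in the middle of that range. With 1 library for each condition there was no test.

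**Figure D1:**
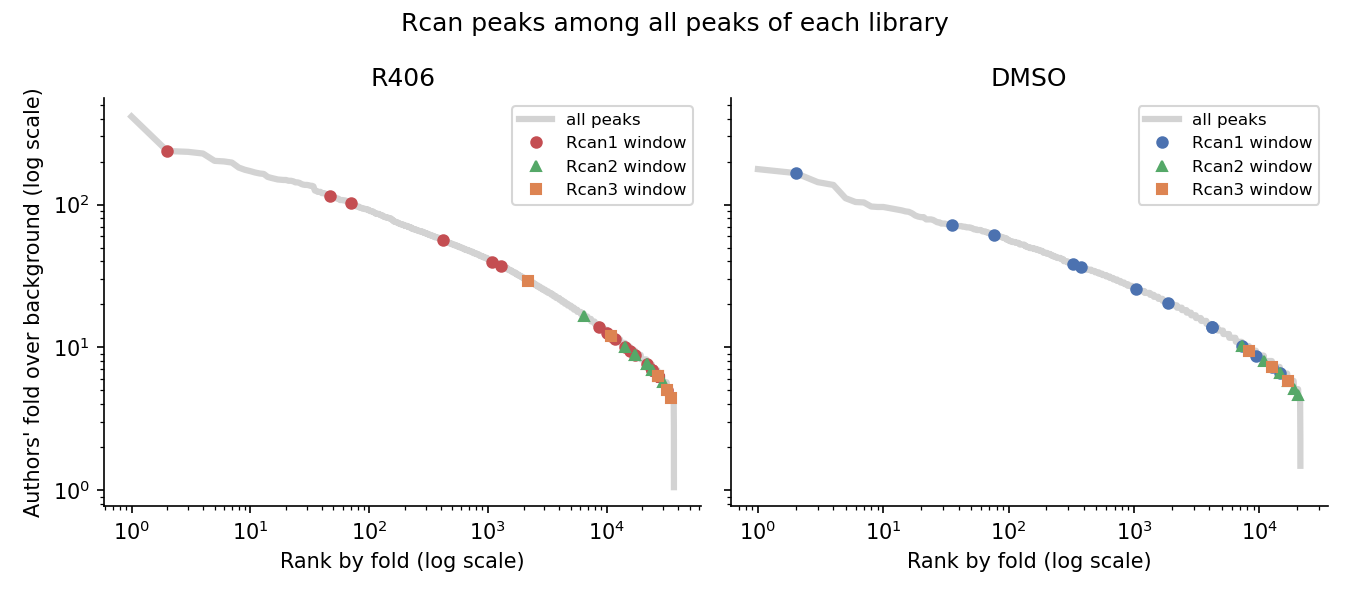
Fold over background (log scale) of all peaks in the R406 library (left) and the DMSO library (right) against their rank by fold (log scale), with peaks in the 3 Rcan windows marked. The peak at the downstream Rcan1 start ranked 2 in each library, while the tallest peak of the Rcan2 window in each library, which lay at different places, had a fold of 16.5 with R406 and 10.2 with DMSO.

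Peaks also ran through the interval between the 2 Rcan1 starts. The R406 library held 24 peaks in the Rcan1 window, 21 of them touching the gene's span, and the DMSO library held 13, with 11 touching the span. Among the 11996 genes the median window held 4 peaks with R406 and 2 with DMSO, and 0.308% and 0.517% of genes had more than Rcan1. Per 100 kb the Rcan1 window held 13.8 peaks with R406 and 7.46 with DMSO, against medians of 2.62 and 1.46, and 34 and 114 genes were denser.

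The tall peaks stood at the same places in both libraries. A peak 23.5 kb upstream of the downstream start, chr16:92421350-92424317 with R406, held 181 fragments with R406 and 83 with DMSO. Another, 43.8 kb upstream at chr16:92443061-92444300 with R406, had 161 fragments with R406 and 98 with DMSO, so the taller of the pair was the first with R406 and the second with DMSO. Their ranks by fold were 47 and 70 with R406, and 77 and 35 with DMSO. Further peaks lay 7.9 kb, 28.7 kb and 39.9 kb upstream, with 88, 62 and 58 fragments with R406, and 49, 34 and 52 with DMSO. The peaks at 28.7, 39.9 and 43.8 kb fell within the span of Gm41498, a long non-coding RNA gene inside Rcan1 that had no row in the RNA table under that symbol. No exon annotation was used, so the peaks are placed only by gene span and start. At the upstream Rcan1 start, whose window held 0 motif matches, both libraries had a small peak, of 19 fragments with R406 and 18 with DMSO.

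**Figure D2:**
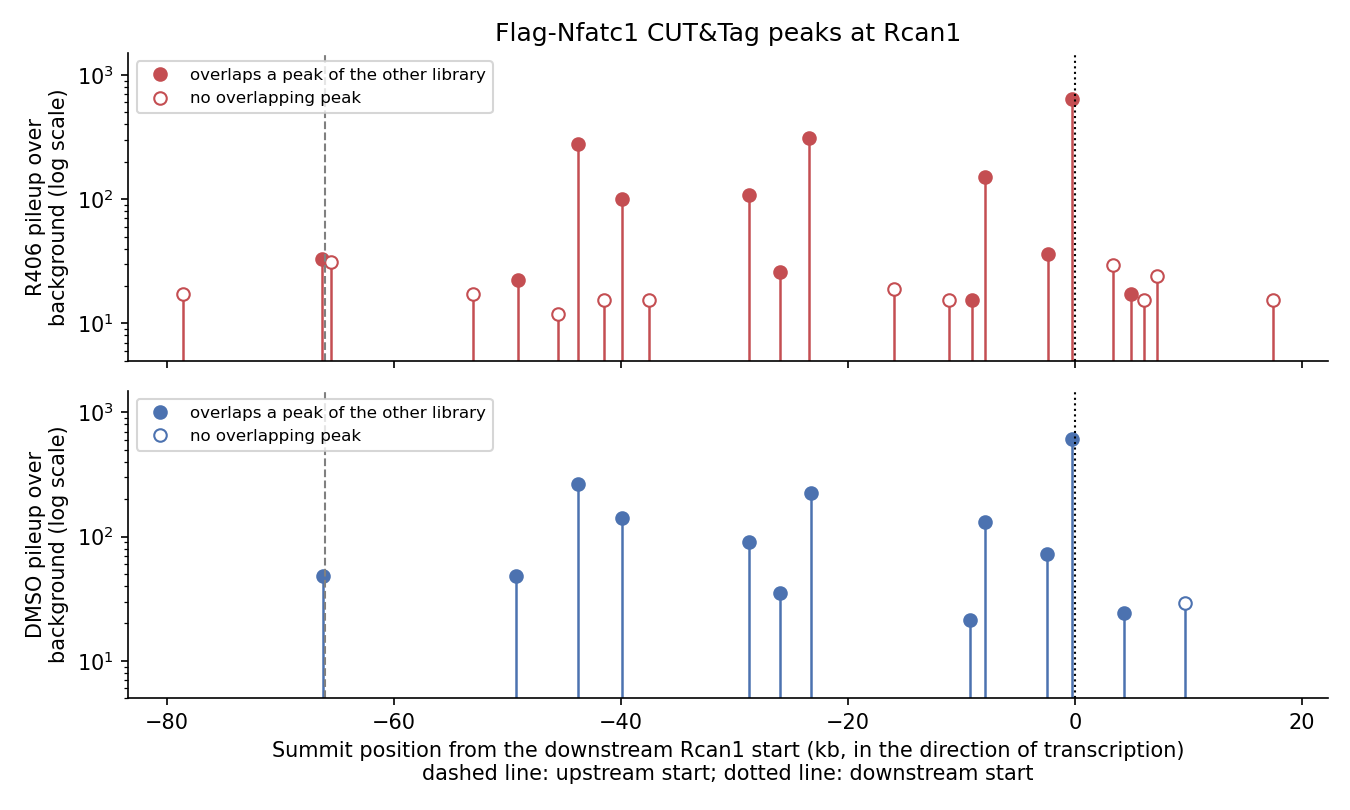
Height of each Flag-Nfatc1 peak at Rcan1 as pileup over the library's background (log scale) against the distance of its summit from the downstream start in kb, with R406 above and DMSO below. Filled points overlap a peak of the other library; the tallest in each, at 644 with R406 and 609 with DMSO, sits beside the downstream start.

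Of the 24 R406 peaks at Rcan1, 12 had no overlapping DMSO peak, against 58.6% of all R406 peaks, so the share of peaks seen only with R406 was near the background. Of the 13 DMSO peaks 1 had no R406 counterpart, against 27% of all DMSO peaks. The 12 peaks seen only with R406 were small, with 7 to 18 fragments. Scaled to the DMSO background they would hold 4.49 to 11.5 fragments, where the smallest DMSO peak held 5, and 1 of the 12 would fall under it. Scaled values leave out counting error, so they cannot tell which of these peaks the DMSO library could have shown. In the 12 matched pairs at Rcan1 the ratio of heights ran from 0.463 to 1.40. The interval of the ratio lay above 1 in 1 pair, the peak 23.5 kb upstream (1.40, counting interval 1.07 to 1.84). It lay below 1 in 1 other, chr16:92402257-92403281, next to the tallest peak, with 21 fragments with R406 and 27 with DMSO (0.499, 0.268 to 0.916). For the peak at chr16:92448769-92449699, with 13 fragments with R406 and 18 with DMSO, it ended at 1.0 (0.463, 0.209 to 1.0). Across all 14147 matched pairs the median was 1.09, with quartiles of 0.784 and 1.5.

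Rcan2, the longest of the 3 genes, had no peak near the height of the tallest Rcan1 peak. Its window held 8 peaks with R406 and 6 with DMSO, against medians of 4 and 2, and 10.4% and 6.74% of genes had more. Per 100 kb it held 2.37 and 1.77, near the medians of 2.62 and 1.46. Its tallest folds, 16.5 with R406 and 10.2 with DMSO, lay near the medians of 17.7 and 10.9 for the tallest peak of a gene. None of the 3 Rcan2 windows before a start overlapped a peak in either library, where 21.4% of all promoter windows did with R406 and 14.3% with DMSO. An R406 peak of 13 fragments, chr17:43953023-43953872, began just past the third start, with its summit 410 bases beyond it, and the DMSO library had no peak there. The tallest with R406 was chr17:43785620-43786336, 15.5 kb before the first start, with 25 fragments and a fold of 16.5 with R406. Its DMSO counterpart had a fold of 4.67, and its pileup could not be recovered because it did not sit on the fixed background.

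The Rcan3 window held 6 peaks with R406 and 3 with DMSO, against medians of 4 and 2. Per 100 kb it held 4.94 and 2.47, against medians of 2.62 and 1.46, and 18.4% and 28.1% of genes were denser. Inside its span Rcan3 had 1 small peak with R406, of 6 fragments, and 0 with DMSO, where the medians were 1 and 0. The window before its start carried no peak in either library, and the peaks upstream of it that both libraries shared lay about 2.4 kb and 6.3 kb away. These held 9 and 18 fragments with R406, and 7 and 12 with DMSO. The tallest R406 peak of the Rcan3 window stood past the 3′ end of the gene, at chr4:135405968-135407103, with 45 fragments with R406 and 9 with DMSO, where the peak 6.3 kb upstream was the tallest with DMSO. Its ratio of heights was 3.21, with a counting interval of 1.55 to 7.46, larger than in 98.9% of all matched pairs. It is named because its ratio was the largest of the 19 Rcan pairs that had one, so it describes these 2 libraries and supports no general difference.

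**Figure D3:**
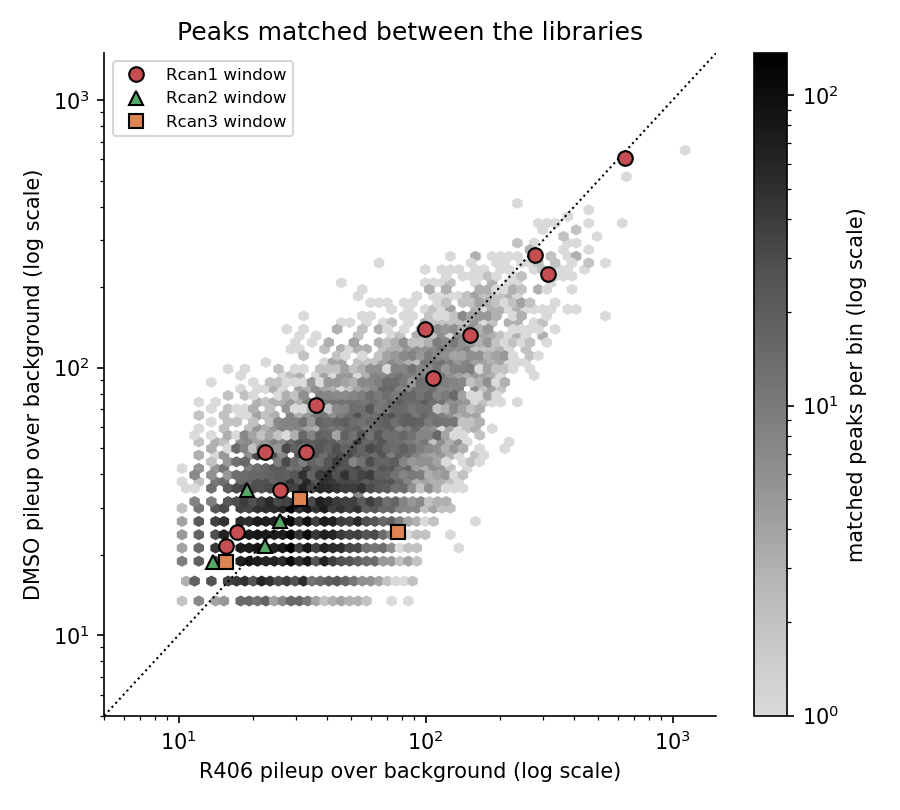
Height of peaks matched between the libraries, as pileup over background with R406 (horizontal, log scale) and with DMSO (vertical, log scale); grey bins count all matched peaks and coloured points are those in the Rcan windows. The tallest Rcan1 peak lies close to the dotted line of equal height, and an Rcan3 peak at 77.5 with R406 and 24.2 with DMSO lies to its right.

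The RNA of Rcan1, the gene with the tallest peak, averaged 144 ± 22.2 TPM with R406 and 144 ± 22.8 TPM with DMSO (SD, n = 2 each). It stood at 159 and 128 TPM in the R406 libraries, against 160 and 128 TPM in the DMSO libraries. In each group replicate 1 was near 160 and replicate 2 near 128 TPM, so the groups overlapped. The spread within a group was far wider than the difference between groups, and it followed the replicate number. No label ties that number to a shared culture. The log2 difference, R406 minus DMSO on log2(TPM + 1) here and below, was −0.005 with a 95% interval of −0.58 to 0.57 (limma adjusted p = 0.992). The gene-level value sums the transcripts of both starts. Separate cultures are not stated for the replicates, and p-values here cover the spread among these 4 libraries, which may be technical.

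Rcan2 averaged 14.7 ± 2.99 TPM with R406 and 19.7 ± 3.85 TPM with DMSO (SD, n = 2 each). It measured 12.6 and 16.8 TPM in the R406 libraries, against 17.0 and 22.4 TPM in the DMSO libraries. The groups thus lay apart by the narrow gap between 16.8 and 17.0 TPM, which sets R406 replicate 2 beside DMSO replicate 1. Within each replicate number the R406 value was the lower, 12.6 against 17.0 TPM and 16.8 against 22.4 TPM. The difference of −0.40 had an interval of −1.03 to 0.24 and did not pass the test (limma adjusted p = 0.374). Groups lay apart in this direction in 30.2% of the 13929 genes tested.

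Rcan3 was the member with the largest difference. It measured 13.8 and 11.5 TPM in the R406 libraries, against 8.23 and 6.74 TPM in the DMSO libraries, or 12.6 ± 1.61 against 7.49 ± 1.05 TPM (SD, n = 2 each), a ratio of means of 1.69. Both R406 libraries lay above both DMSO libraries, as in 25.9% of all genes tested. The difference of 0.68 had an interval of 0.15 to 1.22 and an unadjusted p of 0.0225, and it did not pass after adjustment over all genes (limma adjusted p = 0.118). Thus 0 of 3 members passed, against 8.31% of all genes (4.26% higher and 4.05% lower), and 1 of 3 had an unadjusted p under 0.05, against 26.8%. No other tool was run. The background share itself, of 593 genes higher and 564 lower with all 4 libraries, moved when single libraries were left out. Without either DMSO replicate both counts fell, while without either R406 replicate 1 count fell and the other rose.

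**Figure D4:**
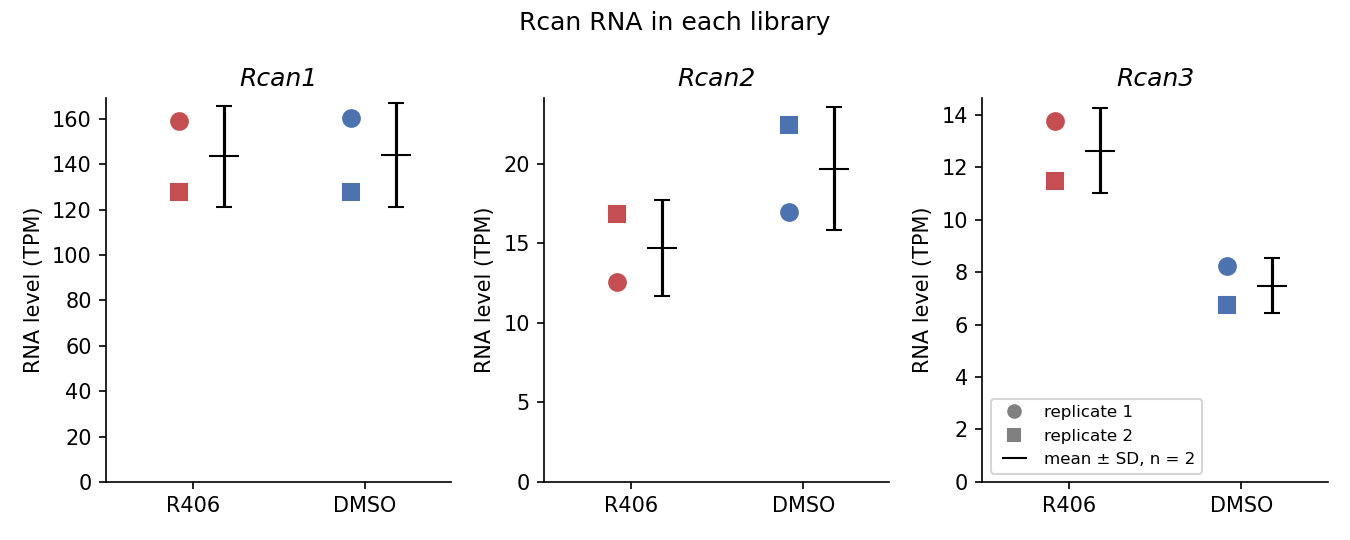
RNA level in TPM of Rcan1, Rcan2 and Rcan3 in each library, R406 left and DMSO right, with circles for replicate 1, squares for replicate 2, and the mean ± SD of 2 libraries. The Rcan1 groups overlap between 128 and 160 TPM, while both Rcan3 values with R406, 13.8 and 11.5 TPM, lie above both with DMSO.

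Rcan1 made up most of the family's RNA. On the length-scaled TPM, its share of the family sum was 85.8% and 81.9% with R406, and 86.4% and 81.5% with DMSO. In each library it ranked between 907 and 1015 of all genes, and Rcan2 and Rcan3 between 4393 and 8461. The order of the lesser members was not the same in every library. With DMSO, Rcan2 was 2.06 and 3.32 times Rcan3, and both Rcan2 values lay above both Rcan3 values. With R406 the ratio was 0.914 and 1.46, and the values of these genes overlapped. The log2 ratio of Rcan2 to Rcan3 differed by −1.18 between R406 and DMSO, which an exact two-sided permutation test of 2 against 2 libraries put at p = 0.333, the smallest it can give. It was 1 of 4 such ratios. The ratio of Rcan1 to the sum of the catalytic calcineurin genes was 2.85 and 2.34 with R406 and 1.93 and 1.72 with DMSO. The log2 of that ratio differed by 0.503 between R406 and DMSO (exact permutation p = 0.333). Both log2 ratios were taken on TPM without an added 1.

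Of the 5 calcineurin subunit genes, whose protein Rcan proteins bind, 4 were tested and 0 passed, with a median difference of −0.41. The catalytic subunit gene Ppp3ca measured 30.1 and 28.0 TPM with R406, against 41.8 and 38.2 TPM with DMSO (−0.45, limma adjusted p = 0.197). Its relative Ppp3cb measured 21.8 and 23.0 TPM with R406, against 35.0 and 32.0 TPM with DMSO (−0.56, adjusted p = 0.128). In both genes the groups lay apart, as in this direction in 30.2% of all genes tested, and neither passed the test. The regulatory subunit gene Ppp3r1, whose groups also lay apart, differed by −0.37. Ppp3cc, with overlapping groups, differed by −0.30, while Ppp3r2 was too low to be tested. The 3 calmodulin genes had differences of −0.39 to −0.22, with adjusted p-values of 0.248 for Calm2 and 0.487 for Calm3.

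Of 50 partner genes of the Rcan proteins, 37 were expressed highly enough to be tested and 0 passed limma's threshold over all genes, where 8.31% of all genes passed. An unadjusted p under 0.05 was reached by 12 of them, 2 higher and 10 lower, against 12.3% and 14.5% of all genes. Their median difference was −0.23, against −0.02 over all genes tested. A missing call is no sign of equal levels.

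Among the NFAT factors, 4 of 5 were tested and had a median of −0.17. Nfatc1, the factor tagged in the CUT&Tag cells, measured 7.36 and 5.45 TPM with R406, against 2.41 and 2.98 TPM with DMSO (0.99, adjusted p = 0.0659). Nfat5, which responds to osmotic stress and lacks the calcineurin docking of its relatives, differed by −0.80 (adjusted p = 0.194). Nfatc1 passed the threshold without R406 replicate 2 (adjusted p = 0.0426), with median centring (0.0399), with quantile normalization (0.0374) and with TPM rescaled without mitochondrial and ribosomal protein genes (0.0422).

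Of 9 other binders and inhibitors of calcineurin, 5 were tested, with a median of 0.25. Chp1, a calcineurin-like calcium-binding protein that can inhibit the phosphatase, measured 24.0 and 18.4 TPM with R406, against 50.6 and 41.4 TPM with DMSO (−1.09, adjusted p = 0.0547). It passed without R406 replicate 1 (adjusted p = 0.0419), with median centring (0.0222), with quantile normalization (0.0210) and with the same rescaling (0.0275). The anchoring protein gene Akap5 measured 2.22 and 2.51 TPM with R406, against 4.43 and 4.04 TPM with DMSO (adjusted p = 0.109).

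All 8 kinases of Rcan or NFAT proteins were tested, with a median of −0.35. Dyrk2, which phosphorylates NFAT, measured 15.6 and 17.0 TPM with R406, against 26.3 and 28.2 TPM with DMSO (−0.71, adjusted p = 0.0820). Map3k7, the kinase TAK1, had a difference of −0.57 (adjusted p = 0.137). Gsk3b, a kinase that phosphorylates both Rcan1 and NFAT, measured 9.29 and 9.68 TPM with R406 and 13.2 and 13.9 TPM with DMSO (−0.47, adjusted p = 0.178). Its groups lay apart, as in this direction in 30.2% of all genes tested.

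Other substrates of calcineurin had a median of −0.05 over 8 tested genes. The CREB coactivator gene Crtc1 differed by −0.87 (adjusted p = 0.0884, and 0.0452 with quantile normalization) and the muscle and neuronal factor gene Mef2a by −0.62 (adjusted p = 0.133). Of 11 known NFAT target genes other than Rcan1, 5 were tested, with a median of 0.24. The cyclooxygenase gene Ptgs2 measured 7.63 and 8.0 TPM with R406, against 17.5 and 13.6 TPM with DMSO (−0.90, adjusted p = 0.0681). The phosphatase gene Acp5 lay the other way, at 52.3 and 59.0 TPM with R406, against 34.0 and 30.4 TPM with DMSO (0.77, adjusted p = 0.0746). Il2 and Csf2, cytokine genes driven by NFAT in T cells, were listed at 0 in all 4 libraries. Without R406 replicate 2, Myc (adjusted p = 0.0185) and the lysosomal regulator gene Tfeb (0.0322) passed, and without R406 replicate 1 the dynamin gene Dnm1 did (0.0493).

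**Figure D5:**
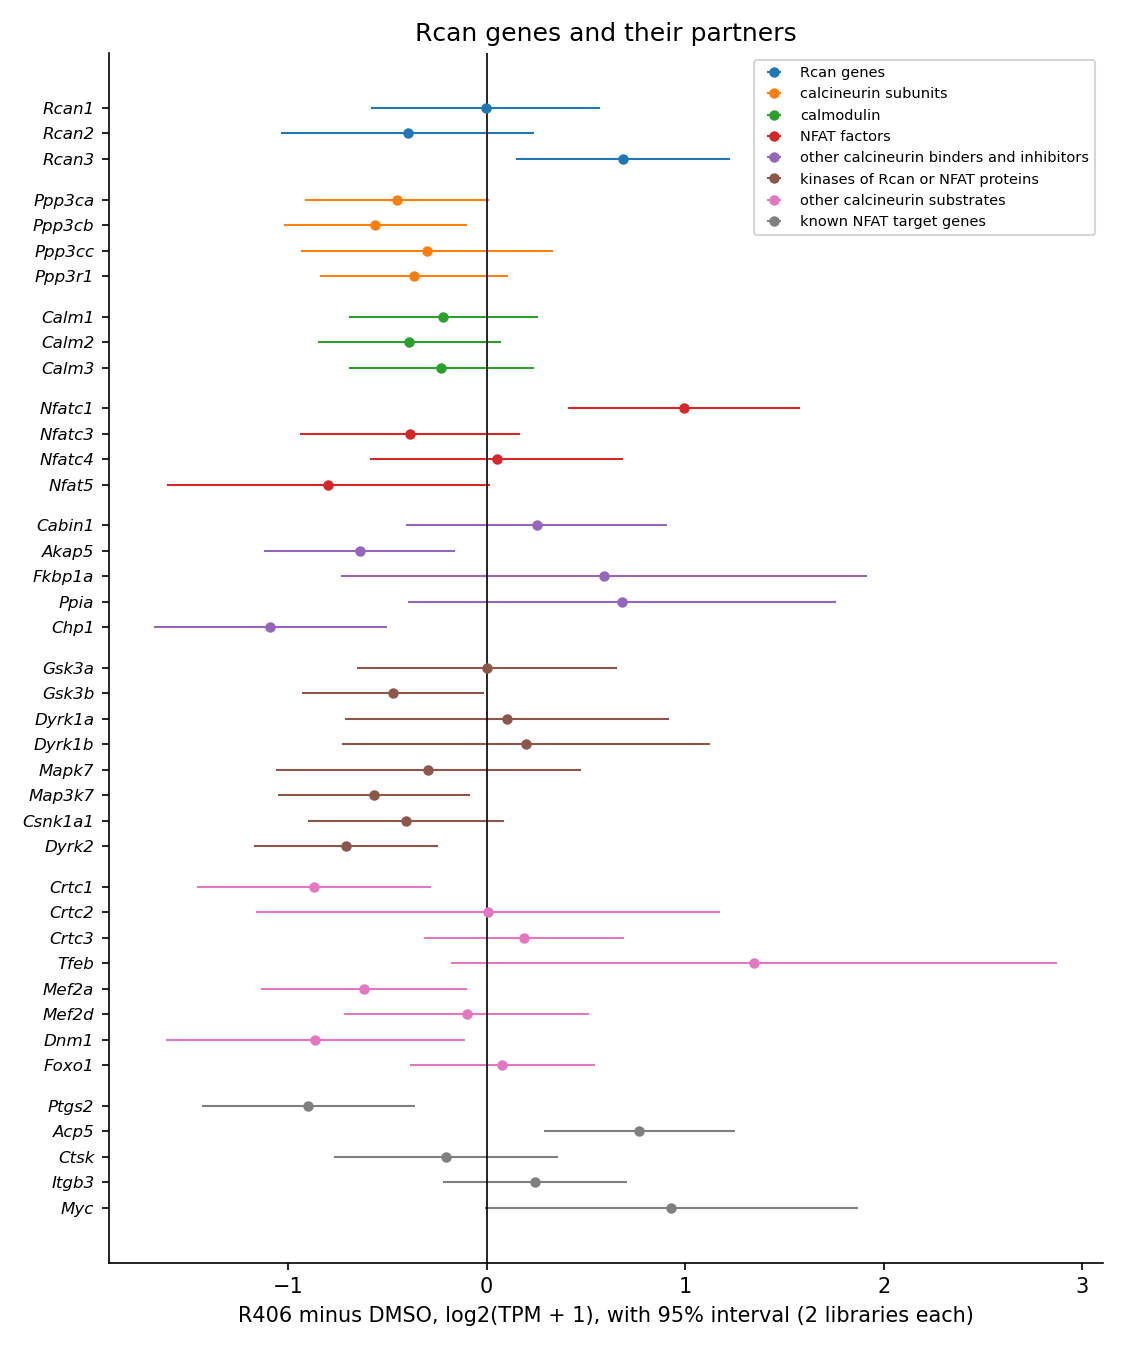
Difference in RNA between R406 and DMSO on log2(TPM + 1), with its 95% interval, for the 3 Rcan genes and the 37 tested partner genes, coloured by list; positive values are higher with R406. Rcan1 sits at −0.005 and Rcan3 at 0.68, and the calcineurin and calmodulin genes lie between −0.56 and −0.22.

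The 50 kb on each side of the Rcan genes held few other expressed genes. Clic6, Cyp39a1, Enpp5, Ncmap and Nipal3 were tested, and of these only Clic6 passed, where 8.31% of all genes did. So few genes cannot be told apart from that share. Clic6, a chloride channel family gene that lies upstream of Rcan1 at chr16:92498147-92541241, rose to 19.8 and 15.0 TPM with R406, against 2.95 and 4.80 TPM with DMSO (1.93, limma adjusted p = 0.0271). It lost its call without DMSO replicate 1 (adjusted p = 0.0665) and, as did every gene, with no filter on low values. Beside Rcan2, Enpp5 measured 19.2 and 17.97 TPM with R406 and 32.9 and 33.7 TPM with DMSO (adjusted p = 0.0600, and 0.0474 with rescaling), and the oxysterol hydroxylase gene Cyp39a1 had an adjusted p of 0.129. Beside Rcan3, Ncmap differed by 1.16 (adjusted p = 0.0691) and passed without R406 replicate 2 (0.0323), with median centring (0.0490), with quantile normalization (0.0496) and with rescaling (0.0483), while Nipal3 differed by 0.04 (adjusted p = 0.941). Kcne1, past the 3′ end of Rcan1, was listed at 0 in all 4 libraries.

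By the smallest distance between centred log2 profiles over the 4 libraries, the genes most like Rcan1 were Ftsj1, Adcy6 and Faf1, at distances of 0.0113, 0.0172 and 0.0283. Ftsj1, for example, measured 18.9 and 15.1 TPM with R406, and 19.1 and 14.9 TPM with DMSO. Those most like Rcan2 were Phf20l1, Edem3 and Cltc (0.0185 to 0.0591), and those most like Rcan3 were Hpf1, Ndufs6 and Tmem178 (0.0153 to 0.0538). Candidates were kept only if their groups overlapped or lay apart as the member's did, so that likeness was set in advance. Symbols starting with Gm or ending in Rik were left out. Between 1999 and 4025 genes competed for each place, and a profile of 4 libraries is short.

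Markers of other cell types differed between the conditions, and their part in the Rcan values was not tested. Over all genes tested, 4.26% were called higher and 4.05% lower, and a single call in a list is too few to set against these shares. Of 11 fibroblast markers, all were tested, 1 was higher and 0 lower, and their summed level was 4310 to 6030 TPM with R406 and 3850 to 4770 TPM with DMSO. Of 12 macrophage markers 9 were tested and 8 fell, with sums of 21.7 and 23.6 TPM with R406 against 285 and 240 TPM with DMSO. All 6 epithelial markers rose, with sums of 715 and 409 TPM with R406 against 77.8 and 99.9 TPM with DMSO. For endothelium, neurons and striated muscle, 1 of 4, 1 of 4 and 0 of 3 tested markers were higher and 0 were lower. No marker was at 0 in all 4 libraries. In such bulk samples fewer cells of a type and less RNA per cell cannot be told apart.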

How the data were processed

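RNA was measured in 4 libraries and Flag-Nfatc1 was followed by CUT&Tag in 2 libraries, grouped by their titles. The authors deposited TPM per gene, and the table of all 4 libraries held the same values as their single files. Per the submitters' processing notes, HISAT2 2.1.0 and StringTie 2.0 were used on mm10, on an annotation not given in the sources used here. TPM keeps no depth, and the NEBNext Ultra kit named in the labels' protocols does not mark strand. For each CUT&Tag library the authors deposited 1 list of peaks with each peak's fold (a ratio over background), p-value and q-value on a −log10 scale, and a score that carried 10 times the p column without its decimals. Bowtie2 2.2.5 and MACS2 2.1.2 were used per the submitters' processing notes, with a control, threshold and duplicate handling not given in the sources used here.

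The 13929 genes averaging 1 TPM or more were compared on log2(TPM + 1) with limma 3.58.1 (R 4.3.3, trend option, two-sided), with Benjamini-Hochberg adjustment and a threshold of 0.05; such differences understate those of low genes. Replicate numbers did not enter the model. Peaks were matched by an overlap of 1 base. Pileup was recovered where the fold lay within 0.02 of a whole step, in 94.9% of R406 and 94.4% of DMSO peaks, and a Poisson tail at that pileup gave the deposited p-value within 1% in 99.8% of those it could be computed for. Gene spans, starts and promoters came from RefSeq on GRCm38.p6. The members, gene lists and motifs were chosen with earlier results of these data known. Named partner genes were the calcineurin subunits, those past the threshold or, with none, the 2 of each list with the smallest p; genes within 50 kb of a member and the 3 genes of most similar profile (mean of at least 5 TPM) were also named. Gsk3b, Tfeb, Dnm1, Myc, Il2 and Csf2 were added after their values were seen. Alternatives varied the pseudocount, filter, scaling, replicate block, left-out library, flank, peak threshold and overlap.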

Additional observations from a re-analysis of the deposited data

How the results depend on the processing

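No Rcan gene was called in the main fit, so there was no member call whose direction an alternative could turn. Directions were not compared over all genes. The small Rcan1 difference changed sign between alternatives, for example to 0.039 with median centring. Rcan1 and Rcan2 passed the threshold under no alternative, and Rcan2 came nearest with the replicate number as a block (limma adjusted p = 0.0522). Rcan3 passed only with the replicate number as a block (limma adjusted p = 0.0194, difference 0.6848). Its limma adjusted p was 0.059 with median centring, 0.060 with quantile normalization and 0.063 with TPM rescaled without mitochondrial and ribosomal protein genes. The main fit put it at 0.118. Left out in turn, single libraries put the Rcan3 difference at 0.558 to 0.812, Rcan2 at −0.593 to −0.203 and Rcan1 at −0.166 to 0.156. No label ties a number to a shared culture, and there are 2 pairs only, so the block is no main result, although replicate deviations in R406 and DMSO correlated (r = 0.556 across genes, which are not independent replicates). With that block 2128 genes were higher and 2535 lower, and 3 and 15 partner genes were, Nfatc1 (adjusted p = 0.0263) among the higher and Ppp3ca (0.0271), Ppp3cb (0.0230), Ppp3r1 (0.0328), Chp1 (0.00512) and Crtc1 (0.0204) among the lower; Ncmap (0.0385) and Enpp5 (0.00956) passed too. With no filter on low values 0 and 0 genes passed. With a mean of at least 5 TPM, 311 and 332 did. Median centring gave 933 higher and 755 lower genes, against 593 and 564 in the main fit, with 1 partner higher and 1 lower. Quantile normalization gave 877 higher and 850 lower genes, with 1 partner higher and 2 lower. Rescaling without mitochondrial and ribosomal protein genes, chosen after seeing the data, gave 939 higher and 771 lower genes, with 1 partner higher and 1 lower. Leaving out 1 library gave 190 to 896 genes higher and 152 to 597 lower, and 0 to 3 partners higher and 0 to 2 lower. Kept to a −log10 q-value of at least 10, the Rcan windows held 19 R406 and 13 DMSO peaks, with 11 R406 peaks matched. A reciprocal overlap of 50% matched 13 in place of 20. The cause of these shifts was not tested. Depth cannot be recovered from TPM, and small peaks near the calling limit cannot be compared between libraries of unequal depth.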
